A study of Mus musculus with 4 samples.

Results

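Nts, Sst, Vgf, Scg2, Scg3, Scg5 and Chgb encode precursors of neuropeptides and the granin proteins packed with them, and these 7 genes, chosen as a list, were followed among the 15632 genes of the deposited tables. The tissue was the deep cerebellar nuclei, the output nuclei of the cerebellum, micro-dissected from adult C57BL/6J mice for single-nucleus RNA sequencing in a study of glutamatergic nuclear neurons and satiation. Each of the 4 libraries came from a cross of a Cre driver line, either Ucn3-Cre or vGluT2-Cre (a transgene that carries the Slc17a6 promoter), with the Ai32 reporter line, whose channelrhodopsin and EYFP fusion is expressed after Cre recombination. The labels name no sort for the reporter. Ucn3-Cre replicate 1 was a 3-month female prepared on an iodixanol gradient and Ucn3-Cre replicate 2 a 3-month male prepared on a sucrose cushion. vGluT2-Cre replicate 1 was a 2-month male and vGluT2-Cre replicate 2 a 2.5-month female, both prepared on a sucrose cushion. The labels do not say how many mice went into a library, so p-values measure the spread between these libraries.

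Peptide precursors are made in the endoplasmic reticulum, sorted into dense core vesicles in the trans-Golgi network, cut there by prohormone convertases, trimmed by carboxypeptidase E and often amidated before release. Granins are acidic proteins that condense in the same vesicles and are themselves cut into peptides. The genes are marks of neuroendocrine cells and of peptidergic neurons, and several of them have cyclic AMP response elements in their promoters.

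The libraries held 4291, 6587, 5642 and 4974 nuclei, in the order Ucn3-Cre replicate 1, Ucn3-Cre replicate 2, vGluT2-Cre replicate 1 and vGluT2-Cre replicate 2, which is kept for every set of 4 values that follows. They held 9.10 M, 16.2 M, 16.4 M and 19.1 M counts, and the median nucleus held 1730, 1999, 2336 and 3206 counts. Pairs of libraries shared 3 to 8 cell barcodes. After removal of 947 called doublets, 20547 nuclei were clustered without the 7 genes or any other gene of the secretory pathway lists, and clusters were named from marker genes. The names are likenesses to those markers and stand without "-like" from here on. Levels are given in CPM, the counts of a gene summed over a class in a library and scaled to the same total for every class and library. They are not corrected for gene length, so members are not ranked against each other. Class differences were tested on those sums with edgeR's quasi-likelihood test with the library as a block. Clusters and tests used the same counts, so p-values between clusters are too small.

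The neurons formed 4 groups. A glutamatergic class of 546 nuclei carried Slc17a6 (200 CPM), the vesicular glutamate transporter, and held 470 of the 471 kept nuclei of the authors' separate table of vGluT2 neurons. An inhibitory class of 660 nuclei carried Gad1, Gad2 and Slc32a1 (277, 437 and 221 CPM), the enzymes and vesicular transporter of GABA neurons, with little of the glycine transporter Slc6a5 (1.52 CPM). A class of 244 nuclei had molecular layer interneuron markers. The remaining 434 nuclei, cluster 19, are called by number: they carried Gad1, Gad2 and Slc32a1 (202, 473 and 259 CPM) together with Slc6a5 (214 ± 26.2 CPM, SD, n = 4) and Pax2 (127 ± 13.2 CPM), but Nxph1, a marker used for molecular layer interneurons, led them too at 2850 CPM.

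Promoter stretches are shown for the elements known in this gene group, and were read from RefSeq (GRCm38.p6). The windows searched were the 250 bases before the RefSeq start of each gene, on both strands, for TGACGTCA (the full cyclic AMP response element), TGACG (its core, which the full element contains) and TGACTCA (an AP-1 element). Of the 7 genes, 6 were in the table, and Vgf was not. The stretches are 30 bases long, read 5′ to 3′ along the gene, with the element in capitals.
Sst, chr16:23890874-23890903, minus strand: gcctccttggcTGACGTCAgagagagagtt
Scg2, chr1:79440076-79440105, minus strand: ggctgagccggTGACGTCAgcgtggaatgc
Chgb, chr2:132781559-132781588, plus strand: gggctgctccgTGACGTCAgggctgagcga
Scg3, chr9:75684069-75684098, minus strand: gcgctgggtcgcTGACGccatcctcacgcc
Scg5, chr2:113829249-113829278, minus strand: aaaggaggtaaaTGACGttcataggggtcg
Nts, chr10:102490607-102490636, minus strand: aactctttctgTGAGTCAgaaatcctgagc

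The full element stood in the windows of Sst, Scg2 and Chgb, 3 of the 6, against 1.55% of 32851 promoter windows of the same length. It began 48, 68 and 72 bases before the RefSeq start. Scg3 and Scg5 held the core without the full element. Nts held TGACTCA on the reverse strand, printed here as TGAGTCA, which 4.46% of all windows hold, and also the core on the reverse strand. The core was thus in all 6 windows, against 17.8% of all windows. The stretches of Sst, Scg2 and Chgb lie inside the gene as GENCODE annotates it, which starts before the RefSeq start. A match of letters is a description and not a measured site.

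Nts, the precursor of neurotensin and neuromedin N, was concentrated in cluster 19. Its level there was 57.2, 165, 61.6 and 105 CPM. In the glutamatergic class Nts was at 11.9, 9.98, 3.75 and 9.34 CPM and in the inhibitory class at 4.72, 1.12, 0.74 and 3.82 CPM. Every library of cluster 19 lay above every library of both other classes. A count of Nts was found in 162 of the 434 nuclei of cluster 19 (37.3%, exact 95% interval 32.8 to 42.1%), 33 of the glutamatergic (6.04%) and 7 of the inhibitory nuclei (1.06%). Oligodendrocytes, which should lack the peptide, had a count in 0.611% of nuclei and astrocytes in 0.536%, at median depths of 1915 and 2521 counts against 5475 in cluster 19. With each nucleus thinned to 1000 counts the shares were 10.6% in cluster 19, 1.28% in the glutamatergic class, 0.455% in the inhibitory class and 0.332% in oligodendrocytes. The inhibitory share was thus close to that of oligodendrocytes. Intervals cover counting error only.

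Vgf, the precursor of several regulatory peptides, was also higher in cluster 19, at 61.2, 149, 106 and 73.7 CPM. The inhibitory class had 34.2, 35.3, 43.2 and 42.7 CPM of Vgf and the glutamatergic class 26.2, 32.6, 41.4 and 31.4 CPM. The ranges of cluster 19 and of these classes did not overlap. Parts of these classes, described below, did reach that range: 67.3 to 115 CPM in inhibitory sub-cluster 4 and 73.5 to 169 CPM in glutamatergic sub-cluster 1. Scg3, a granin that binds vesicle membrane cholesterol and chromogranin A, reached 142, 186, 178 and 200 CPM in cluster 19. It was at 96.9, 110, 80.7 and 88.8 CPM in the inhibitory class and at 76.4, 79.5, 99.6 and 95.8 CPM in the glutamatergic class, again without overlap with cluster 19. Molecular layer interneurons, at 76.8 to 158 CPM of Scg3, did overlap cluster 19 and were not tested against it. The 6 astrocyte markers, whose class also holds Scg3, summed to 65.5 to 88.7 CPM in cluster 19 and to 70.7 to 139 CPM in the inhibitory class.

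Against the inhibitory class, where 36.1% of 9519 genes passed in either direction and 17.8% were higher, 6 members were tested and 3 rose in cluster 19. These were Nts (log2 difference 5.35 ± 0.29 SE, adjusted p = 5.5e-22), Vgf (1.30 ± 0.17, adjusted p = 3.9e-09) and Scg3 (0.94 ± 0.12, adjusted p = 2.5e-09). Each was higher in 4 of 4 libraries. Chgb was just under the threshold in the other direction (-0.33 ± 0.14, adjusted p = 0.047), and that call was lost in 7 alternatives, with adjusted p up to 0.34. Scg2 (-0.09) and Scg5 (-0.05) did not pass. Against the glutamatergic class, where 30.2% of 9780 genes passed and 14.2% were higher, 5 of the 6 rose in cluster 19. Nts differed by 3.53 ± 0.21, Vgf by 1.48 ± 0.16, Scg2 by 1.16 ± 0.11, Scg3 by 0.93 ± 0.11 and Scg5 by 0.37 ± 0.08 (adjusted p = 0.00041 for Scg5), while Chgb did not pass (-0.06, adjusted p = 0.79). Nts passed the count filter in both comparisons through its counts in cluster 19, and failed it between the glutamatergic and the inhibitory class. Its call is thus not comparable with the shares over all genes.

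**Figure D1:**
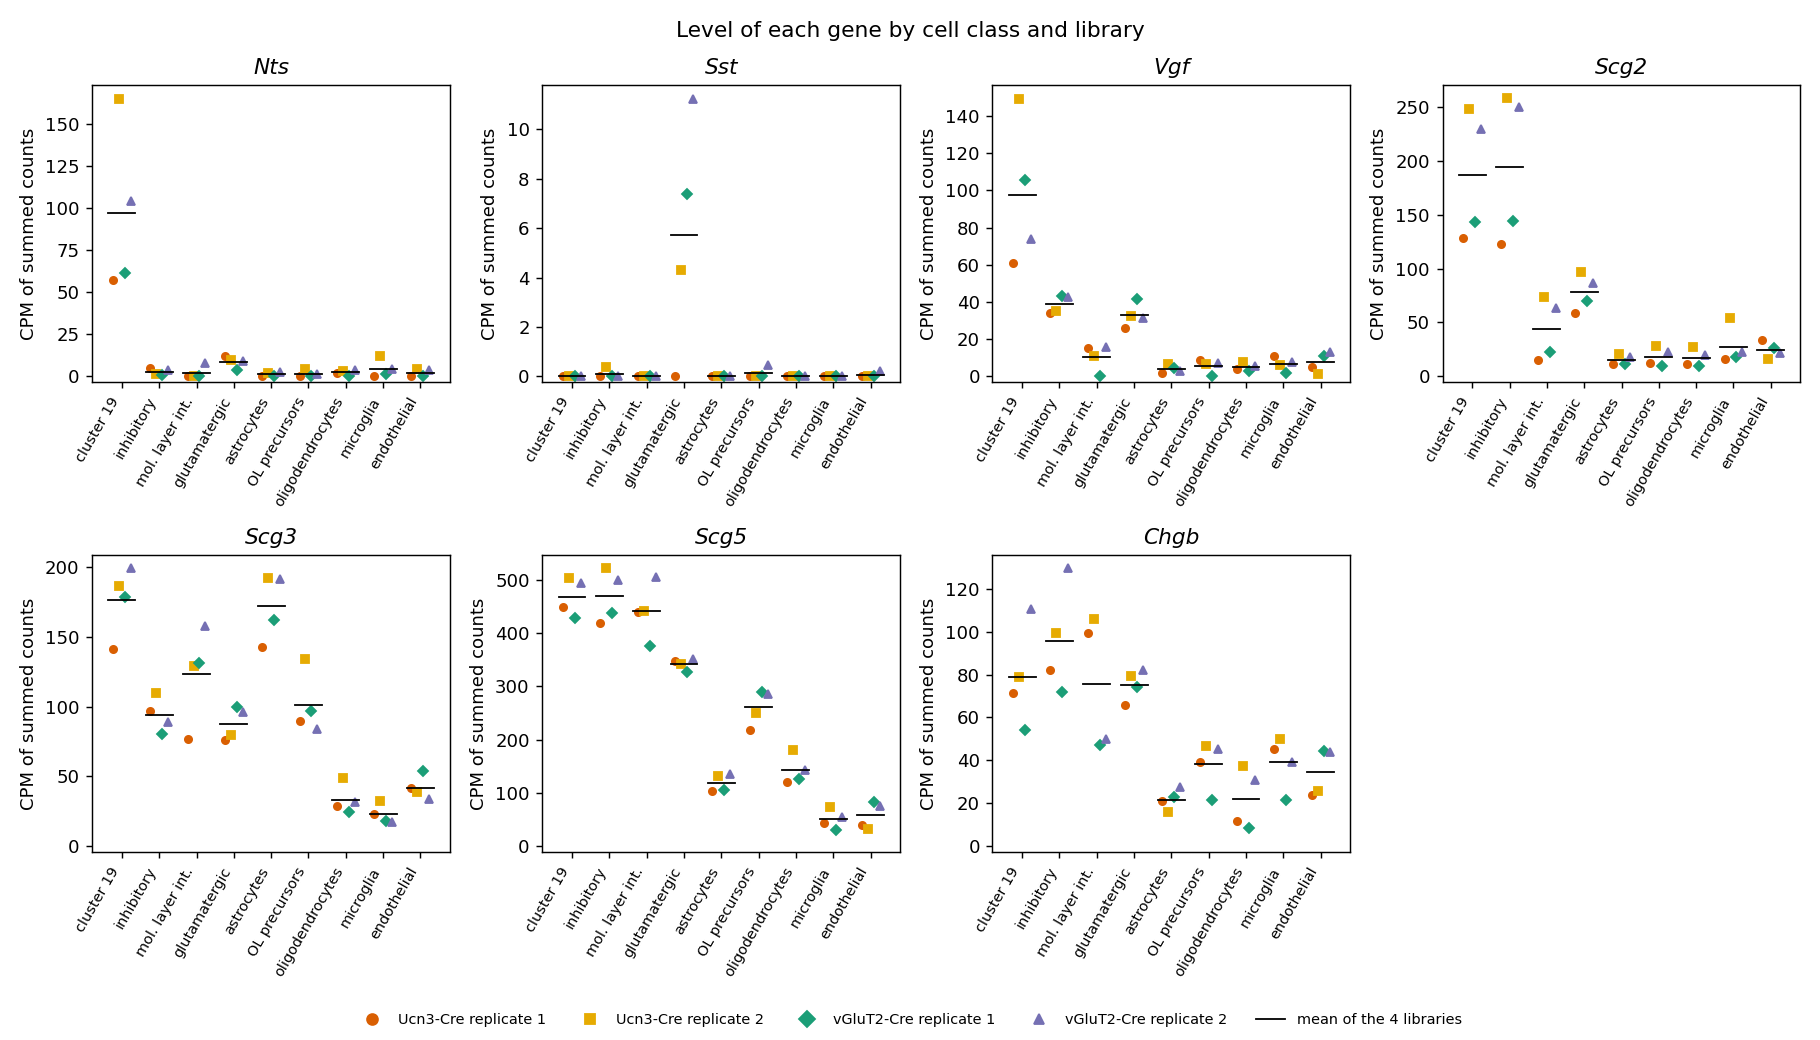
Level of each gene (vertical axis, CPM of summed counts on a linear scale) in 9 cell classes (horizontal axis), with 1 point per library and a line at the mean of the 4 libraries. Nts stands at 57.2 to 165 CPM in cluster 19 and at no more than 12.01 CPM in the other classes drawn, Scg3 is as high in astrocytes as in cluster 19, and Sst is drawn above 1 CPM in the glutamatergic class alone.

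Scg2, the precursor of secretoneurin, separated the glutamatergic from the inhibitory class. It was at 58.5, 97.0, 70.3 and 86.8 CPM in glutamatergic sums and at 123, 258, 144 and 250 CPM in inhibitory sums, with no overlap. The log2 difference was -1.26 ± 0.10 (adjusted p = 1.4e-11), lower in 4 of 4 libraries. Scg5, which encodes the chaperone of the convertase made from Pcsk2, was at 348, 341, 326 and 351 CPM in the glutamatergic class and at 418, 522, 437 and 500 CPM in the inhibitory class. These ranges did not overlap either, and the log2 difference was -0.42 ± 0.08 (adjusted p = 3.6e-05). In this comparison 37.2% of 10373 genes passed and 18.5% were lower in the glutamatergic class, so 2 of 5 members is near the background.

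The other members did not pass between these classes. Chgb, chromogranin B, had 66.1, 79.2, 74.2 and 82.0 CPM in glutamatergic sums and 81.9, 99.5, 71.8 and 130 CPM in inhibitory sums, which overlap (log2 difference -0.27 ± 0.12, adjusted p = 0.077). Chgb passed without vGluT2-Cre replicate 1 (-0.40 ± 0.14, adjusted p = 0.023) and without TMM factors, the scaling between sums (-0.32, adjusted p = 0.042). Vgf (-0.17 ± 0.16, adjusted p = 0.44) and Scg3 (0.00 ± 0.12, adjusted p = 1.0) did not pass, and Nts and Sst had too few counts for the filter. Without the filter Nts was higher in the glutamatergic class (1.84 ± 0.52, adjusted p = 0.0044, from 48.0 and 7.84 counts). Sst passed there too, but 30.04 of its 39.3 counts came from sub-cluster 6, which carries inhibitory markers. In the authors' vGluT2 table Sst had 8.14 counts and a mean of 1.28 ± 1.20 CPM. Pooling cluster 19 with the inhibitory class changed 3 genes. Nts then became -2.30 (adjusted p = 1.7e-08), Vgf -0.85 (adjusted p = 2.4e-05) and Scg3 -0.44 (adjusted p = 0.00088), so that lower Nts, Vgf and Scg3 in glutamatergic neurons were there only with cluster 19 in the reference. Pooling was chosen after the data were seen.

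Molecular layer interneurons had less Scg2 (15.4, 73.8, 22.6 and 63.3 CPM) and less Vgf (15.2, 10.8, 0 and 15.8 CPM, from 4.84 counts) than the inhibitory class. Scg2 differed by -2.19 ± 0.24 (adjusted p = 5.6e-13) and Vgf by -2.33 ± 0.54 (adjusted p = 0.00024), the only 2 of 5 members called where 29.6% of 6716 genes passed. Without vGluT2-Cre replicate 1, the library with no Vgf count, Vgf was at -1.52 and its call was lost (adjusted p = 0.055). Scg5 in these nuclei, at 439, 440, 376 and 506 CPM, overlapped the inhibitory class (-0.19, adjusted p = 0.32), as did Chgb at 99.4, 106, 47.2 and 50.0 CPM (-0.49, adjusted p = 0.13). Scg3, at 76.8, 129, 131 and 158 CPM, did not pass either (0.42, adjusted p = 0.12).

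**Figure D2:**
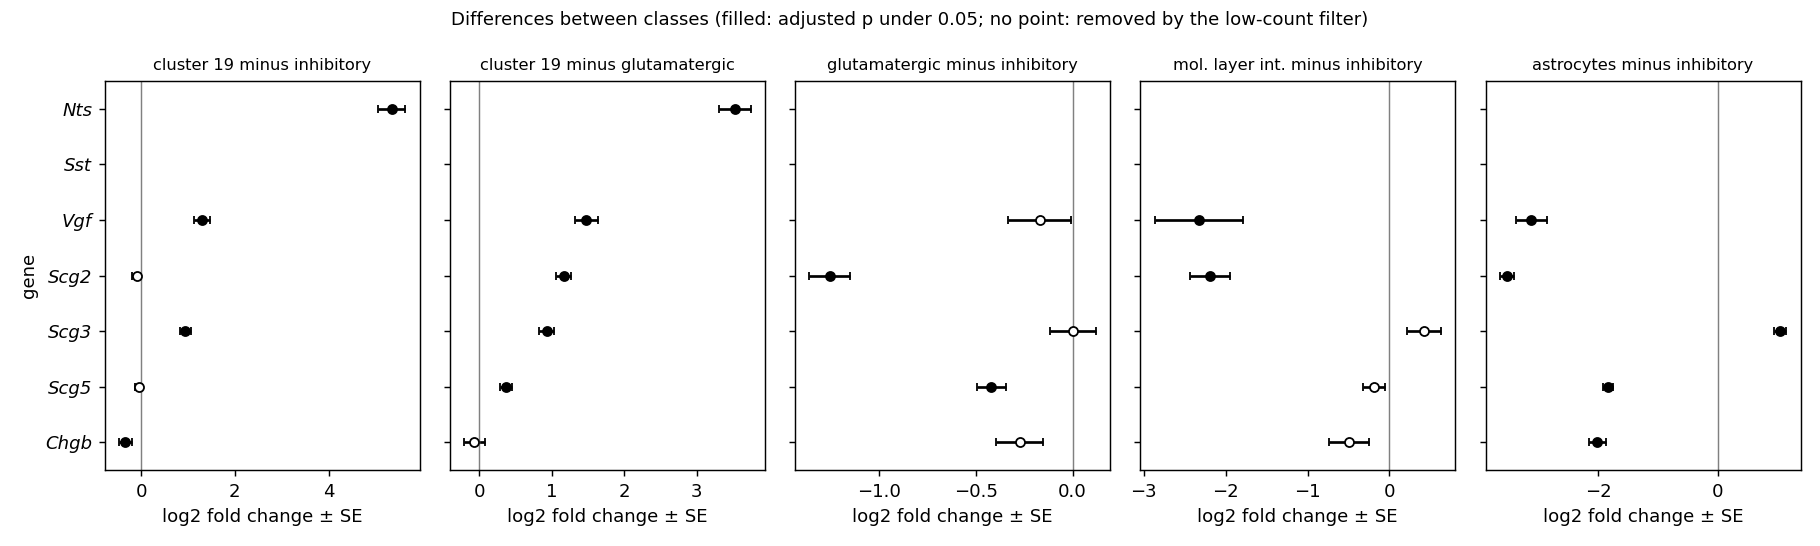
Log2 fold change ± SE (horizontal axis, edgeR) of each gene (vertical axis) in 5 comparisons of classes over the 4 libraries, filled where the adjusted p was under 0.05. Nts lies at 5.35 and 3.53 in the comparisons of cluster 19, Scg2 at -1.26 and -2.19 below the inhibitory class, and Scg3 alone lies above 0 for astrocytes.

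Sst, the somatostatin precursor, was rare: 27 of 20547 nuclei had a count, 24 of them in the glutamatergic class, which had 0, 4.32, 7.39 and 11.2 CPM (39.3 counts). None of the 434 nuclei of cluster 19 had a count, which allows a share of nuclei with a count of up to 0.691% (3 nuclei of 434) at this depth and sets no limit on nuclei that express the gene. Inside the glutamatergic class the counts sat mostly in 2 small sub-clusters. Sub-cluster 6, led by Pax2, Gad2 and Slc6a5, had 0, 90.3, 48.2 and 181 CPM, from 12 of its 47 nuclei. Sub-cluster 9, led by Pde1a and Hs3st4, had 0, 35.2, 74.8 and 204 CPM, from 7 of its 14 nuclei and 6 counts. Ucn3-Cre replicate 1 had no Sst count in either, from 8 and 3 nuclei.

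Sub-cluster 6 goes against the label of its class. Slc17a6 was at 15.5 CPM there, while Slc6a5, Pax2 and Gad2 were at 205, 421 and 428 CPM, and none of its 47 nuclei were in the authors' vGluT2 table. Sst differed between glutamatergic sub-clusters (F test, adjusted p = 2.1e-06), a call that DESeq2 did not make (adjusted p = 0.98). It failed the filter without the sub-clusters led by markers of other types (5, 6 and 7), without Ucn3-Cre replicate 2 and without either vGluT2-Cre library. Sub-cluster 9 was not in the test, because only 1 library had at least 5 of its nuclei.

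The glutamatergic neurons were not uniform in the other members. All 6 members tested passed the F test over sub-clusters, against 28.4% of 5898 genes. Sst is among these and passed the count filter through its counts in sub-cluster 6, so its call is not comparable with that share. The F test takes all sub-clusters tested at once, and no pair of them was tested on its own. Vgf was nearly absent from sub-cluster 3, led by Crhr1 and Maf (0, 0, 2.27 and 10.8 CPM), and low in sub-cluster 8 (24.9, 0, 16.8 and 8.40 CPM). It was at 169, 123, 73.5 and 153 CPM in sub-cluster 1, led by Zfhx3 and Zfhx4, where Gad1 and Gad2 were also found (164 and 235 CPM). Every library of sub-cluster 1 lay above every library of sub-clusters 3 and 8 (adjusted p of the F test = 3.4e-07).

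Scg2 followed a related order, with 204, 371, 72.7 and 290 CPM in sub-cluster 1 and 141, 236, 110 and 162 CPM in sub-cluster 0, led by Igf1, Kynu and Sox6. It was at 13.3, 86.0, 43.9 and 28.4 CPM in sub-cluster 3 and at 18.5, 26.4, 26.8 and 44.8 CPM in sub-cluster 5, which oligodendrocyte genes led (adjusted p of the F test = 1.1e-09). Sub-cluster 0 lay above 3 and 5 in every library without overlap. Sub-cluster 0 also held 26.2 of the 48.0 Nts counts of the glutamatergic class, from 16 of its 87 nuclei, and sub-cluster 5 held another 15.2, from 10 of its 91 nuclei. Nts was at 40.4, 54.0, 13.9 and 52.2 CPM in sub-cluster 0 and at 28.3, 13.8, 0 and 6.16 CPM in sub-cluster 5. All 87 nuclei of sub-cluster 0 and 65 of the 91 of sub-cluster 5 were in the vGluT2 table.

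Scg5 was at 536, 612, 384 and 535 CPM in sub-cluster 2, led by the transcription factor gene Lmx1a, and at 255, 264, 242 and 286 CPM in sub-cluster 3, without overlap (adjusted p of the F test = 9.8e-05). Chgb was at 48.9, 27.3, 32.6 and 43.4 CPM in sub-cluster 3 and at a mean of 130 ± 60.2 CPM in sub-cluster 2 (adjusted p of the F test = 0.0011). It reached 287, 160, 205 and 99.4 CPM in sub-cluster 9, which was not in that test. Scg3 ranged from a mean of 56.4 ± 27.3 CPM in sub-cluster 4 to 128 ± 40.6 CPM in sub-cluster 1 (SD, n = 4, adjusted p of the F test = 0.00069). It was at 150 ± 34.7 CPM in sub-cluster 6 with its inhibitory markers and 129 ± 73.4 CPM in sub-cluster 7, led by molecular layer interneuron markers. Sub-cluster 3 was thus low in Vgf, Scg2, Scg5 and Chgb together, with means of 3.26, 42.9, 262 and 38.0 CPM. This was not particular to it: sub-cluster 5 had 23.2, 29.1, 266 and 55.5 CPM of the same genes. Sub-clusters 3 and 5 also had the highest median depths, 14070 and 15150 counts. The part of depth in these levels was not tested.

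Among inhibitory sub-clusters, where 11.4% of 5212 genes passed, Vgf and Chgb differed. Vgf was at 67.3, 81.5, 104 and 115 CPM in sub-cluster 4, led by Ryr3 and Lmo3, and at 49.8, 50.4, 51.1 and 79.9 CPM in sub-cluster 0, led by Prlr and Rorb. It was at 7.51, 13.9, 26.5 and 9.94 CPM in sub-cluster 1, the largest with 243 nuclei, led by Cntnap3, below both others without overlap (adjusted p of the F test = 2.9e-08). Chgb was at 205, 264, 70.3 and 179 CPM in sub-cluster 2, whose leading genes include the granule cell genes Gabra6 and Etv1, against 81.4 ± 36.7 CPM in sub-cluster 1 (adjusted p of the F test = 0.00015). The part of granule cell RNA in that level was not tested. Scg2 was just under the threshold (adjusted p = 0.043) and lost it in 6 alternatives, with adjusted p up to 0.72.

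Within cluster 19, where 12.6% of 4626 genes passed, Nts (adjusted p = 1.0e-07) and Vgf (adjusted p = 4.3e-05) differed between sub-clusters. Nts was at 150, 345, 139 and 159 CPM in sub-cluster 1, led by Cadm1, Slc24a3 and Cacna1g, and at 8.35, 87.2, 36.9 and 84.9 CPM in sub-cluster 0, led by Kcnc2 and Epha6. These ranges did not overlap, though both sub-clusters held about the same number of nuclei, 143 and 144. Sub-cluster 3 had 108, 149, 44.1 and 133 CPM and sub-cluster 4 had 40.4, 81.5, 41.3 and 51.8 CPM. Vgf was highest by its mean in sub-cluster 1 as well, at 150, 193, 189 and 101 CPM against 62.6 ± 22.8 CPM in sub-cluster 0. The astrocyte gene Slc1a2 was among the leading genes of sub-cluster 1, and its nuclei had a median of 3762 counts against 6557 in sub-cluster 0.

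**Figure D3:**
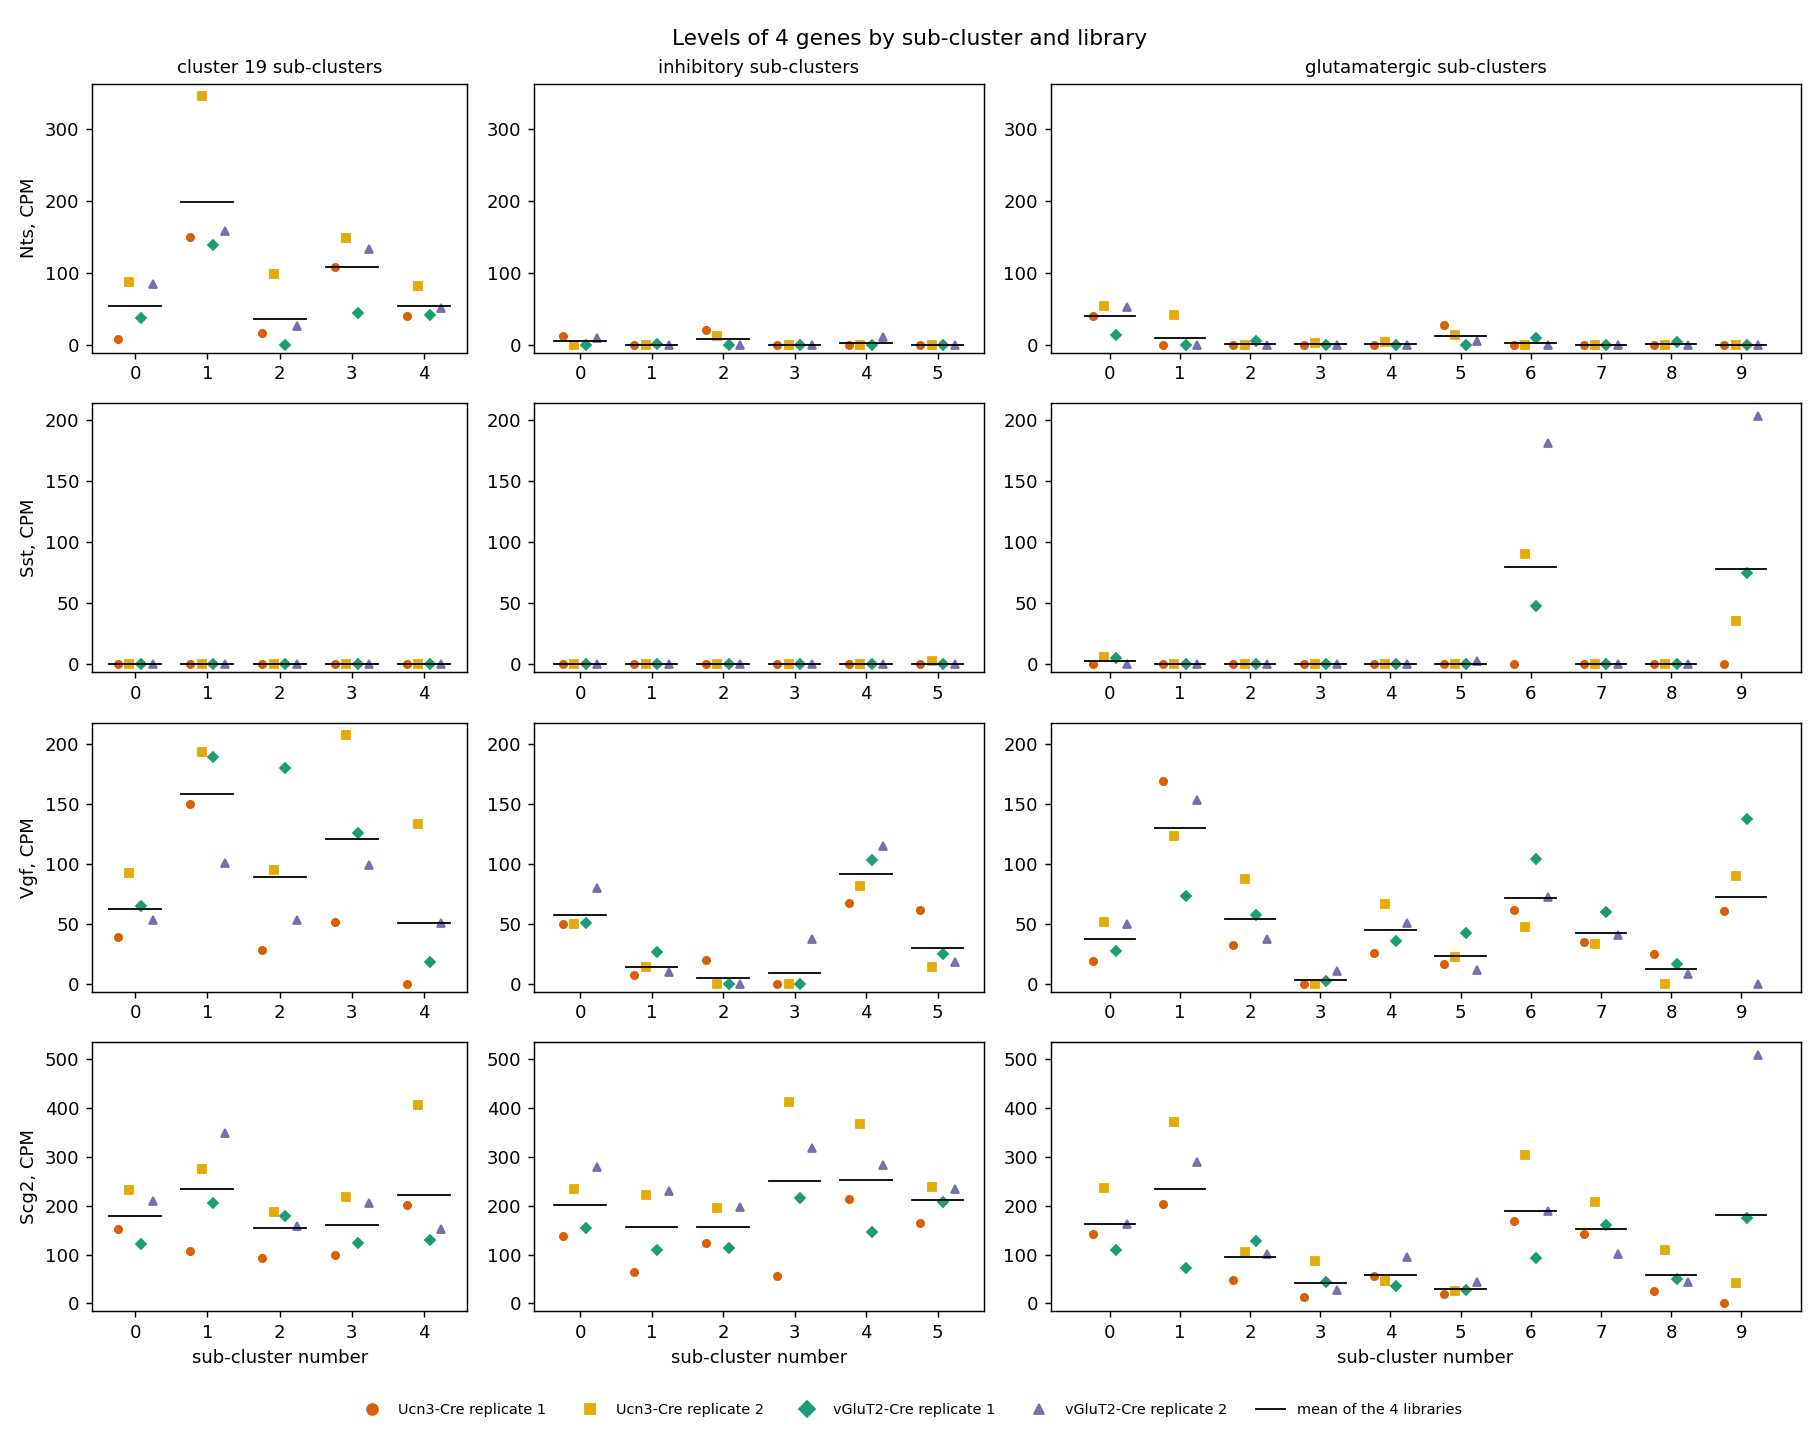
Levels of Nts, Sst, Vgf and Scg2 (rows, CPM on linear axes) in the sub-clusters of cluster 19, of the inhibitory class and of the glutamatergic class (columns), with 1 point per library and a line at the mean. Nts in cluster 19 peaks in sub-cluster 1 at 139 to 345 CPM, Sst stands out in glutamatergic sub-clusters 6 and 9, and Vgf is at most 10.8 CPM in glutamatergic sub-cluster 3.

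Against glia, all 5 members that passed the filter were higher in neurons, where 62.4% of 11933 genes passed, 30.9% higher and 31.5% lower. The log2 differences between the mean of the 3 named neuron classes and that of astrocytes, oligodendrocytes, their precursors and microglia were 2.17 ± 0.18 for Scg2, 2.08 ± 0.45 for Vgf, 1.68 ± 0.09 for Scg5, 1.43 ± 0.18 for Chgb and 0.71 ± 0.12 for Scg3. Scg2 was at 11.6, 21.1, 11.03 and 18.2 CPM in astrocytes and at 11.3, 27.1, 9.69 and 19.4 CPM in oligodendrocytes, against at least 58.5 CPM in glutamatergic and inhibitory sums. Molecular layer interneurons overlapped both glia, with 15.4 and 22.6 CPM of Scg2 in 2 libraries. Vgf was at no more than 6.67 CPM in astrocytes and 7.78 CPM in oligodendrocytes, and was at 0 in 1 library of molecular layer interneurons. Over all classes together, all 5 members tested differed, as did 95.7% of genes.

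Scg3 was the exception among the granins, because astrocytes held as much of it as cluster 19. Astrocytes had 142, 192, 162 and 191 CPM of Scg3, above the inhibitory class in every library without overlap. The log2 difference was 1.05 ± 0.10 (adjusted p = 4.6e-09), while Vgf (-3.11), Scg2 (-3.53), Scg5 (-1.84) and Chgb (-2.01) were all lower in astrocytes, in a comparison where 63.9% of 11397 genes passed, 32.6% higher and 31.2% lower. Between astrocytes and cluster 19 Scg3 did not pass (0.13 ± 0.10, adjusted p = 0.29). The other 5 members tested there were lower in astrocytes, where 59.7% of 11266 genes passed (30.4% higher, 29.3% lower), with Nts at -5.96 and Vgf at -4.41. Here too Nts passed the count filter only through its counts in cluster 19. A count of Scg3 was found in 36.9% of astrocytes and 8.09% of oligodendrocytes, and in 15.3% and 4.44% after thinning to 1000 counts.

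Oligodendrocytes had 28.8, 48.9, 24.6 and 31.4 CPM of Scg3, so astrocytes were higher by 2.36 ± 0.11 on the log2 scale (adjusted p = 1.2e-09), where 66.5% of 11832 genes passed, 34.2% higher and 32.3% lower. Of the other members, Scg5 alone passed between these classes, in the opposite direction (-0.29 ± 0.08, adjusted p = 0.0068): it was at 104, 132, 106 and 136 CPM in astrocytes and at 121, 180, 125 and 144 CPM in oligodendrocytes. The Scg5 ranges overlap, and each library was lower in astrocytes.

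Oligodendrocyte precursors lay between these glia for Scg3 and above both for Scg5. They had 89.8, 134, 97.1 and 83.7 CPM of Scg3 and 219, 250, 290 and 286 CPM of Scg5. Both were above mature oligodendrocytes without overlap, by 1.54 ± 0.16 and by 0.82 ± 0.12 (adjusted p = 7.4e-06 for Scg5), where 50.4% of 10511 genes passed and 26.1% were higher. Chgb was at 39.1, 46.8, 21.5 and 45.1 CPM in precursors and at 11.8, 37.3, 8.60 and 30.9 CPM in oligodendrocytes (0.70 ± 0.24, adjusted p = 0.017). That call was lost without Ucn3-Cre replicate 1 (adjusted p = 0.055), without vGluT2-Cre replicate 1 (adjusted p = 0.051) and with values rounded up (adjusted p = 0.25).

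The convertases and receptors had patterns of their own. Of the 12 processing enzymes listed, 9 were tested between the glutamatergic and the inhibitory class, 2 rose and 3 fell, where 37.2% of all genes passed, with a median log2 difference of -0.33 against -0.01 over all genes. Pcsk2, the convertase that the Scg5 product chaperones, was at 513 ± 63.2 CPM in glutamatergic and 56.9 ± 13.1 CPM in inhibitory sums (3.309 ± 0.11, adjusted p = 1.4e-21), opposite to Scg5. Pcsk1 was higher too (2.02 ± 0.36), while Pcsk5 (-1.92 ± 0.10) and Qpct, the glutaminyl cyclase (-2.16 ± 0.23), were lower. In cluster 19 the amidating enzyme Pam was above the inhibitory class (485 ± 70.1 against 273 ± 54.9 CPM, 0.79 ± 0.08), and Pcsk5, Qpct and Cpe were below it.

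Genes of the dense core vesicle membrane and its release were more often lower than higher in cluster 19. Of 17 tested against the inhibitory class, 1 was higher and 11 were lower, where 17.8% of all genes were higher and 18.3% lower, with a median of -0.41 against 0.02 over all genes. The vesicle calcium sensor Syt9 (-3.22 ± 0.17) and the Rab proteins Rab27b (-1.86 ± 0.19) and Rab3c (-1.82 ± 0.09) were lower, as was the priming factor Cadps2 (-1.64 ± 0.15). Between the glutamatergic and the inhibitory class 2 of 17 were higher and 5 lower, where 37.2% of all genes passed, which is near that share. Between neurons and glia, 14 of 18 were higher in neurons and none lower, where 30.9% of all genes were higher, with a median of 2.44 against -0.05 over all genes. They were led by Ptprn2 (5.70 ± 0.15), which encodes the vesicle protein phogrin. Among 3 other granins and chaperones, 1 was higher and 1 lower in cluster 19 than in the inhibitory class (median 0.14), and Resp18 was the lower one (55.3 ± 12.95 against 182 ± 38.6 CPM, -1.79 ± 0.13).

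Of 39 other neuropeptide precursors listed, 19 were in the tables and 3 were tested between cluster 19 and the inhibitory class. Penk, the enkephalin precursor (24.7 ± 9.20 against 8.02 ± 4.14 CPM, 1.51 ± 0.30, adjusted p = 4.0e-05), and Nppc, the C-type natriuretic peptide precursor (24.7 ± 10.2 against 8.24 ± 4.01 CPM, 1.37 ± 0.31, adjusted p = 0.00028), were higher in cluster 19. Both were low in the inhibitory class and passed the count filter through their counts in cluster 19. Their calls are thus not comparable with the 17.8% of all genes that were higher. Nppc was not particular to cluster 19: molecular layer interneurons had a higher mean, 54.05 ± 20.8 CPM (2.495 ± 0.41 above the inhibitory class). Of the 9 receptors listed for member peptides 3 were in the tables. Ntsr2, a neurotensin receptor, was at 625 ± 65.6 CPM in astrocytes and 12.2 ± 2.01 CPM in oligodendrocytes (5.64 ± 0.12). Sort1, the sorting receptor that also binds neurotensin, had the opposite order, with 120 ± 13.5 CPM in astrocytes and 450 ± 58.0 CPM in oligodendrocytes (-1.94 ± 0.08). Sstr receptors and the other absent genes were not analysed here.

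Across the means of 9 named classes, the genes most like each member by Pearson's r, among 12844, were listed. This is a description, since each class mean is built from the same libraries. Cluster 19, where Nts was concentrated, was not among these classes. Chgb was most like Celf4 (0.98), an RNA-binding protein gene of neurons. Scg2 was most like Gm26905, Vgf like Gm5149, Scg5 like C2cd5 and Scg3 like Kyat1, each with r = 0.98. No gene reached 0.85 with Nts over these classes. The highest Nts mean among them was 12.3 CPM, in mural cells, from 2.72 counts, against 97.2 CPM in cluster 19. The r values of Nts therefore cannot show whether any gene shares its concentration in cluster 19.

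No member passed between the Cre lines or between the sexes. In sums of all nuclei, edgeR called 0 of 13793 genes between Ucn3-Cre and vGluT2-Cre, with 479 at an unadjusted p under 0.05 and 239 by DESeq2. The smallest unadjusted p of a member there was 0.40, for Sst. In glutamatergic sums 0 of 11086 genes passed (300 unadjusted, 4 by DESeq2) and in inhibitory sums 0 of 10038 (266 unadjusted, 5 by DESeq2). The smallest member p was 0.164 in the former and 0.171 in the latter, both for Scg3. In cluster 19, 1 of 9060 genes passed (0.011%), no member. Between females and males 0 of 13793 genes passed (445 unadjusted, 200 by DESeq2). For the class difference between lines 1 of 11264 genes passed (0.00888%) and Scg3 had the smallest member p, 0.0161 (adjusted p = 0.88). With 2 libraries in a group, age, preparation and line cannot be told apart for any single library.

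The libraries differed along another line for Scg2. The tables of both replicate 2 libraries carry the same number in their headers, whose meaning is not given in the sources used here, and the split by it was chosen after the data were seen. Scg2 was higher in both of these libraries in all 4 neuron groups, astrocytes and oligodendrocytes. It was at 258 and 250 against 123 and 144 CPM in the inhibitory class, and 248 and 229 against 129 and 143 CPM in cluster 19. In the glutamatergic class it was 97.0 and 86.8 against 58.5 and 70.3 CPM, and oligodendrocytes had 27.1 and 19.4 against 11.3 and 9.69 CPM. The log2 difference was 0.90 ± 0.15 in inhibitory sums (unadjusted p = 0.00036, adjusted p = 0.24 by edgeR, where 0.00996% of genes passed). It was 0.79 in cluster 19 (adjusted p = 0.49, with 0.0221% of genes passing), 0.53 in the glutamatergic class and 0.66 in all nuclei, where no gene passed.

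Nts in cluster 19 was split the same way, 165 and 105 against 57.2 and 61.6 CPM (1.15 ± 0.27, unadjusted p = 0.0027, adjusted p = 0.51). So was Chgb in all nuclei (0.58 ± 0.09, unadjusted p = 0.0056, adjusted p = 0.31). No member passed under edgeR. DESeq2 called 3 members in all nuclei (Scg2, Scg3 and Chgb) and Scg2 in inhibitory sums. Each side of this split holds 1 library of each line and sex, but the iodixanol library is on 1 side, and the replicate 2 libraries had the deeper nuclei within each line. The part of preparation and depth in these values was not tested.

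**Figure D4:**
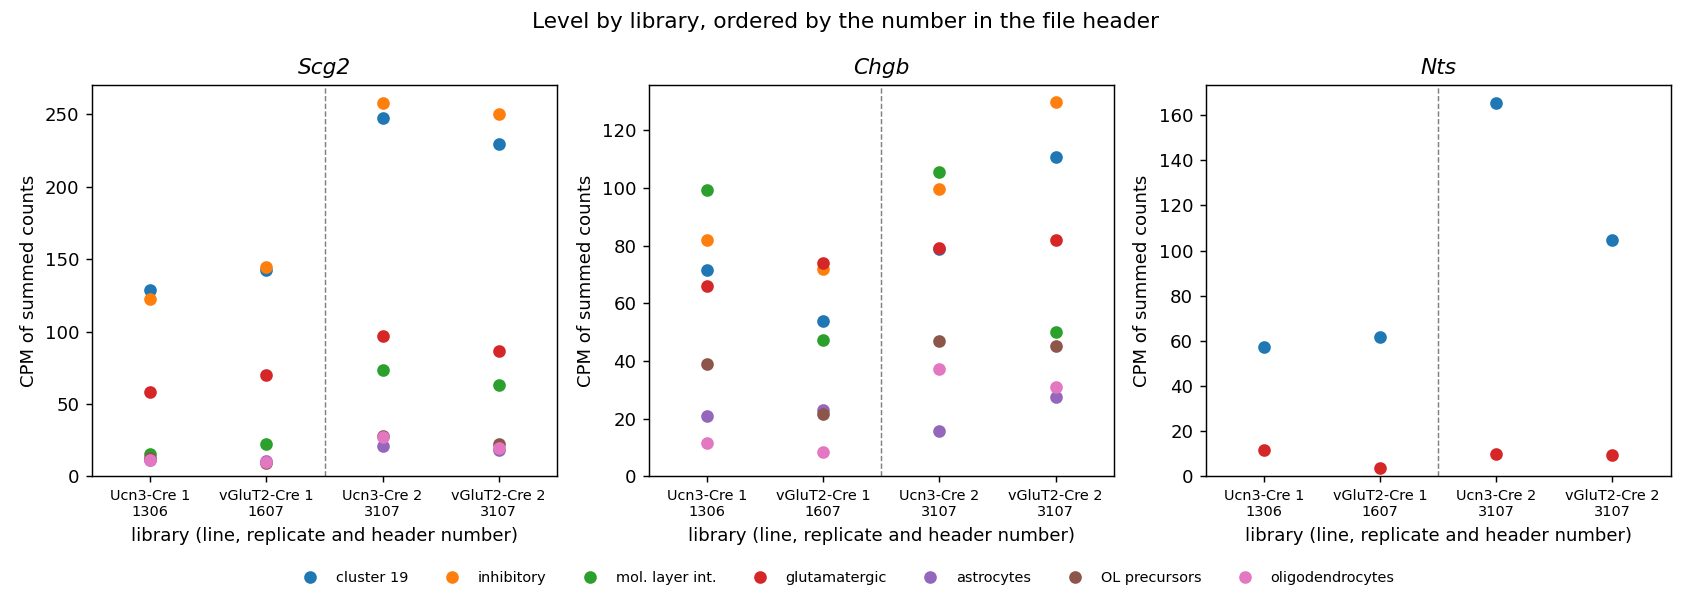
Level (vertical axis, CPM of summed counts) of Scg2, Chgb and Nts in each library (horizontal axis), ordered by the number in the table header, with 1 point per cell class and a dashed line between the libraries that share a number and the others. Scg2 in the inhibitory class is at 123 and 144 CPM left of the line and at 258 and 250 CPM right of it.

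The genes lie apart from each other in the genome. On GRCm38 (GENCODE vM21) Nts spans chr10:102481756-102490486, Sst chr16:23889573-23890958, Scg2 chr1:79434669-79440120, Scg3 chr9:75643189-75684056 and Scg5 chr2:113776362-113829121, all on the minus strand. Vgf spans chr5:137026392-137033351 and Chgb chr2:132781278-132795079 on the plus strand. Scg3 overlaps Gm37871, a gene on the opposite strand, by 688 bases.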

How the data were processed

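Nuclei of the deep cerebellar nuclei were profiled on the 10x Genomics platform in 4 libraries. Per the submitters' processing notes, Cell Ranger 3.1.0, Seurat 3.2 and the mouse build mm10 were used. The deposited tables hold expected counts per gene and nucleus that are not whole: 97.2 to 98.8% of values lie at most 0.5 below a whole number, and the step by which the authors made them is not given in the sources used here. Every deposited nucleus had at least 1000 counts, and the separate vGluT2 table holds 480 nuclei with the same values. Table columns of no sample numbered 0. The depth, 9.10 M to 19.1 M counts a library, limits rare genes such as Sst most.

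Scrublet's automatic threshold marked 44 nuclei (0.205%), so the nuclei with the highest scores, 0.8% of a library for each 1000 nuclei it held, were removed instead. Nuclei were scaled to 10000 counts and clustered with scanpy 1.11.5 on Python 3.11.15 (2000 variable genes, 30 components, 15 neighbours, Leiden resolution 1; sub-clusters at 0.5), without the members and list genes. Classes needed at least 3 markers. Cluster 19 stayed unnamed because a marker of another class led it. Clusters 1 and 6 (1631 and 2030 nuclei, together 17.8% of those kept) scored best for oligodendrocytes but stayed unnamed for the same reason. The oligodendrocyte values therefore leave them out. Counts were summed per library and class, rounded, filtered with filterByExpr, scaled by TMM and tested with edgeR 4.0.16 in R 4.3.3 with the library as a block, and p-values were adjusted by Benjamini-Hochberg across every gene in a fit (threshold 0.05). DESeq2 1.42.0 was an alternative. Classes had at least 20 nuclei and sub-clusters at least 5 nuclei per library. The tests were tested on simulated data first. The libraries' shared replicate numbers were not used to pair them in the main tests.

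The 7 members are named in every comparison. Genes of 5 secretory lists are counted, and up to 4 per list are named by the size of their change among those past the threshold in the same direction in every library. Members, lists and comparisons were chosen with earlier results of these data known. Cluster 19, the astrocyte and precursor comparisons and the header split were added after seeing the data.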

Additional observations from a re-analysis of the deposited data

Results flagged for a closer look

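Scg2 in microglia was far higher in 1 library than in the others. Ucn3-Cre replicate 2 had 53.8 CPM, from 20 counts, against 16.4 to 22.5 CPM in the other 3 libraries. The gap to the nearest library was 0.836 of the whole range, above the 95% critical value of Dixon's test for 4 values. Over 58 such groups of 4 libraries, about 1 in 20 would be marked by chance. Scg2 was also highest in Ucn3-Cre replicate 2 in the inhibitory class, cluster 19 and the glutamatergic class.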

How the results depend on the processing

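The class calls named here as passing kept their side of the threshold in nearly all alternatives run, and the exceptions stand with their results. The alternatives included DESeq2, no TMM factors, rounding up and each library left out. Leiden resolution 2 and doublets kept were not run for the pairwise astrocyte and precursor comparisons. At resolution 2 the fits between neuron groups were identical to the main ones, so they could not change a call there. Between glutamatergic and inhibitory neurons the number of members called rose from 2 to 4 with no filter on low counts and to 5 with cluster 19 pooled in. It was 3 without TMM factors and 2 to 3 with 1 library left out, and 1 to 2 for molecular layer interneurons. In the header split it was 3 by DESeq2 in all nuclei, 1 by DESeq2 and 1 with no filter in inhibitory sums, and with 1 library left out 0 to 1 in inhibitory sums and 0 to 2 in cluster 19.

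Nts between glutamatergic and inhibitory neurons, removed by the filter, was 1.84 (adjusted p = 0.0044) without it and -2.30 (adjusted p = 1.7e-08) with cluster 19 pooled in. The other signs that turned were of differences that had not passed as reported. Scg3 between glutamatergic and inhibitory neurons was -0.025 by DESeq2, -0.044 without TMM factors, -0.0086 rounded up, -0.0071 over the nuclei of the vGluT2 table, -0.028 with no library block, -0.44 with cluster 19 pooled in, and -0.14 to 0.15 with 1 library left out. Chgb between cluster 19 and glutamatergic neurons was 0.017 without TMM factors and -0.26 to 0.12 with 1 library left out. Chgb between astrocytes and oligodendrocytes was 0.16 by DESeq2, 0.012 without TMM factors and -0.40 to 0.45 with 1 library left out. Scg3 between astrocytes and cluster 19 was -0.047 without TMM factors. Between precursors and oligodendrocytes Vgf was -0.035 by DESeq2, -0.092 rounded up and -0.21 to 0.27 with 1 library left out, and Scg2 was 0.064 without TMM factors and -0.040 to 0.039 with 1 library left out. The cause was not tested.

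With the replicate number as a replicate block, 0 members were called between the lines. Same-numbered libraries deviated from their group means with a correlation of 0.009 over 10467 genes in 2 pairs. This value cannot exclude a shared batch, since the Ucn3-Cre libraries also differ in preparation. Scg2 was higher in both replicate 2 libraries. Few counts limit Sst (39.3 in the glutamatergic class) and Vgf in molecular layer interneurons (4.84).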
